A study of Mus musculus with 3 samples.

Results

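The genes described here encode the machinery that copies DNA in S phase: the MCM helicase, the factors that license origins, the replicative polymerases with their primase, the clamp and its loader, the single-strand binding protein RPA and the enzymes that supply deoxynucleotides. They were chosen by name, and the rule used no measured value, but the list was put together with earlier results of these data known. It holds 38 gene symbols. Of these, 35 had a probe set annotated to that gene alone, out of 8221 such genes on the array, and 31 of them read above the noise floor on at least 1 array, out of 4645 such genes. Pole, the catalytic subunit gene of polymerase epsilon, was not in the annotation. Tyms and Orc2 were annotated only to probe sets that also carry a second gene. Mcm6, Gmnn, Rfc3 and Dut did not exceed the floor on any of the 3 arrays, so no difference could be measured for them. Probe sets that may be faulty were not identified, so a reading at the floor does not show that the RNA was absent.

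RNA came from LNC, a malignant B-1 cell line grown from the lymph node of a mouse of the New Zealand Black strain aged 1 year, and was measured on 3 arrays of the Affymetrix murine U74 A type. Cells on 1 array had received 20 µM of an antisense oligonucleotide against IL-10, cells on another 20 µM of a scrambled oligonucleotide, which controls for effects of oligonucleotides as such, and cells on the third were untreated. The RNA was collected at 24 h. All groups are of the same cell line, and the labels do not say whether an array held RNA of 1 culture or of several. IL-10 is a cytokine on which malignant B-1 cells are known to depend for growth, and the comparison asks which transcripts differ when it is targeted.

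With 1 array per group there was no replicate and no test was made. Values are probe set intensities in arbitrary units, scaled to a common trimmed mean on each array, and differences are on the log2 scale after values below the floor of 595.9 had been set to it. As a measure of error, each difference was set beside a yardstick, the 95th percentile of how far apart the 2 controls lay, sign ignored, over the 300 genes nearest in level. This yardstick includes any effect of the scrambled oligonucleotide. For the replication genes it ran from 0.26 to 1.22, with the brightest genes near 0.33. Where 3 intensities follow each other unnamed, they are those of the antisense-labelled, scrambled and untreated arrays, in that order. Intensities of different genes were not compared with each other, because each probe set binds with its own strength.

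Il10, the gene the oligonucleotide targets, read 13946 under the antisense label, 5616 with scrambled oligonucleotide and 5164 without treatment, and its control probe set read 6341, 3967 and 3392. Its RNA was thus higher and not lower there, and the array is called by its label throughout. Between 42.0% and 42.6% of probe sets were above the floor on an array. Of the 9 B cell markers on the array, 6 were above the floor on the 3 arrays, among them Cd79a, Ms4a1, Pax5 and Ighm, while Cd5 and Spn, which are used to define B-1 cells, were at or below it. Of the T cell markers, Cd4 was above the floor, at 1266 under the antisense label, 2339 with scrambled oligonucleotide and 1349 without treatment, while Cd3e, Cd3g, Cd3d, Cd8a and Thy1 did not exceed the floor on any of the 3 arrays. Of 7 myeloid markers none was above the floor on the 3 arrays, but Csf1r was on the untreated array, at 949, and Mpo was under the antisense label, at 688. The ratio of 3-prime to 5-prime signal of 18S ribosomal RNA, an indirect sign of RNA quality, was 8.13 under the antisense label, 4.48 with scrambled oligonucleotide and 1.72 without treatment. It was not computed for messenger RNA controls. The spike-in controls, 6 probe sets, averaged -0.63 (log2) relative to untreated and -0.51 relative to scrambled on the array labelled antisense. The part of either in the differences below was not tested.

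Before S phase, the origin recognition complex, Cdc6 and Cdt1 load the ring of Mcm2 to Mcm7 onto DNA, and geminin, the product of Gmnn, blocks reloading. Cdc45 and Mcm10 then help turn the loaded ring into an active helicase, polymerase alpha with primase lays down primers, and polymerases delta and epsilon extend them on the clamp PCNA, which RFC loads. Many of these genes are known targets of E2F transcription factors, which are released as cells pass from G1 into S phase, so that their RNA rises in cells that cycle.

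Of the 29 replication genes above the floor on the 3 arrays, 15 had 3 values within 0.32 of each other on the log2 scale. That is 51.7%, beside 41.8% of all genes above the floor on the 3 arrays. The median yardstick was 0.45 for the 29 genes and 0.64 for all such genes, and the shares here and below were not matched for level. Among these 15 flat genes the lowest value was on the array labelled antisense for 11, while among the 14 wider ones it was there for 5, on the scrambled array for 7 and on the untreated array for 2. The same split was not made for all genes, so these counts have no background. Over all spans, 36.0% of genes above the floor on the 3 arrays had their lowest value on the array labelled antisense. Of the 31 measured genes, 16 were lower on that array than on both controls, or 51.6%, where 31.6% of all measured genes were. Only 6 were higher than on both controls, or 19.4%, where 37.4% of all measured genes were. Both comparisons share the array labelled antisense, so agreement between them is not independent. Among the 29 replication genes above the floor on the 3 arrays, 16 were lower than on both controls and 5 higher, where 36.0% and 37.9% of all such genes were. The sizes were small: the median difference of the 31 genes was -0.13 against untreated and -0.05 against scrambled, while the median over all measured genes was 0.00 in both. With arrays scaled to the spike-in controls these medians turned to 0.50 and 0.46, beside 0.59 and 0.48 for all measured genes, with 0 of the 31 lower than both controls and 26 higher, beside 5.03% and 82.3% of measured genes, so the directions given here are relative to the bulk of genes on each array.

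**Figure D1:**
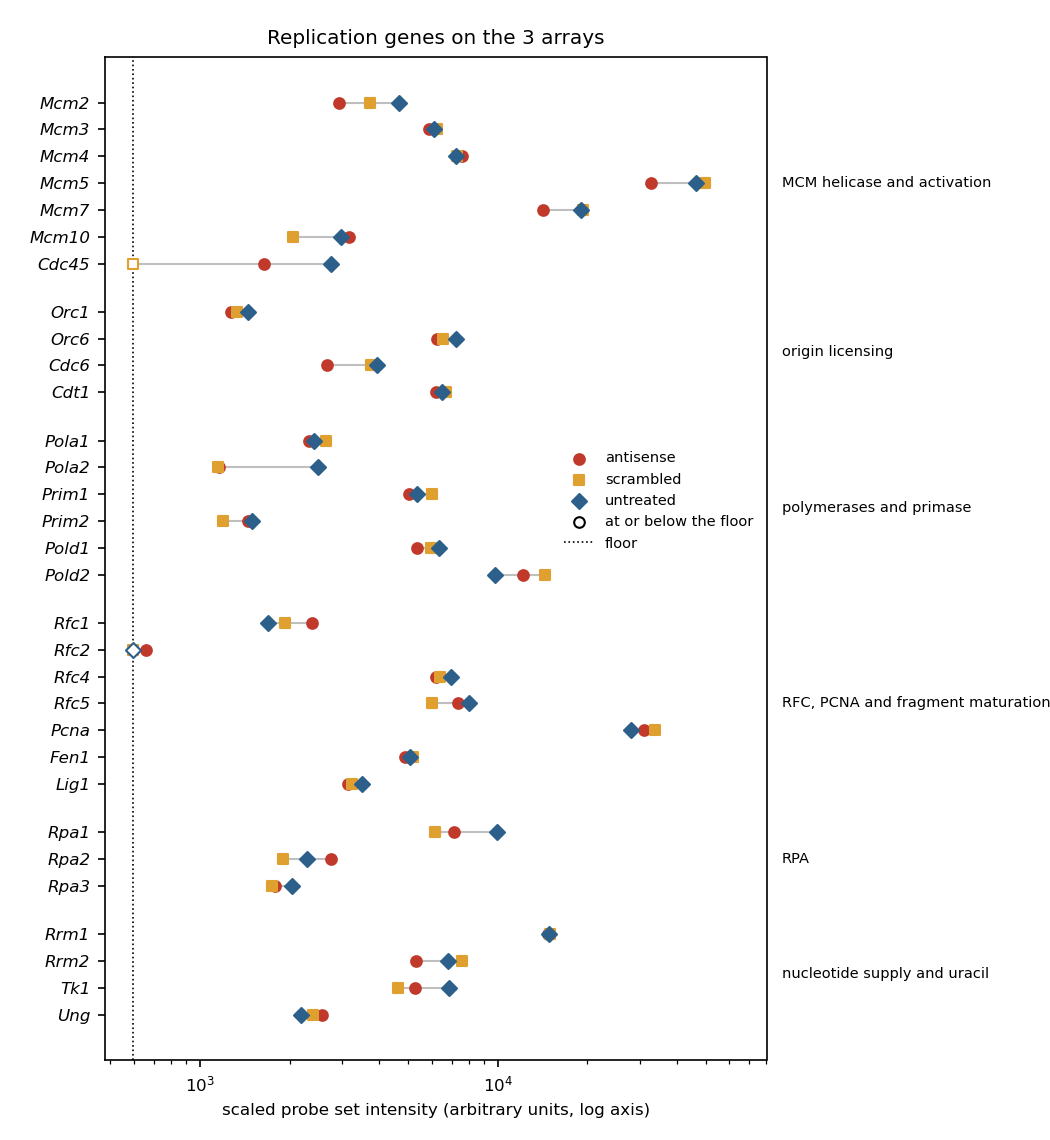
Scaled intensity (log axis, arbitrary units) of the 31 measured replication genes, grouped by machine, with 1 symbol per array. Open symbols mark values at or below the floor of 595.9 (dotted line). Symbols of Mcm3, Mcm4, Rrm1 and Fen1 nearly coincide, while those of Mcm5, Mcm7, Cdc6 and Rrm2 have the array labelled antisense to the left of both controls at this scaling.

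At a threshold of 0.32 on the log2 scale against each control, 5 of 31 replication genes were lower on the array labelled antisense, or 16.1%, beside a background of 10.5% of measured genes. They were Mcm2, Mcm5, Mcm7, Cdc6 and Rrm2. None of the 31 was higher by this rule, where 13.6% of measured genes were. Mcm5 and Mcm7 were the ones that were lower than on both controls by more than the yardstick in each comparison, 2 of 31 or 6.45%, beside 2.54% of measured genes. In the higher direction 0 of 31 met this rule, beside 2.52%.

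**Figure D2:**
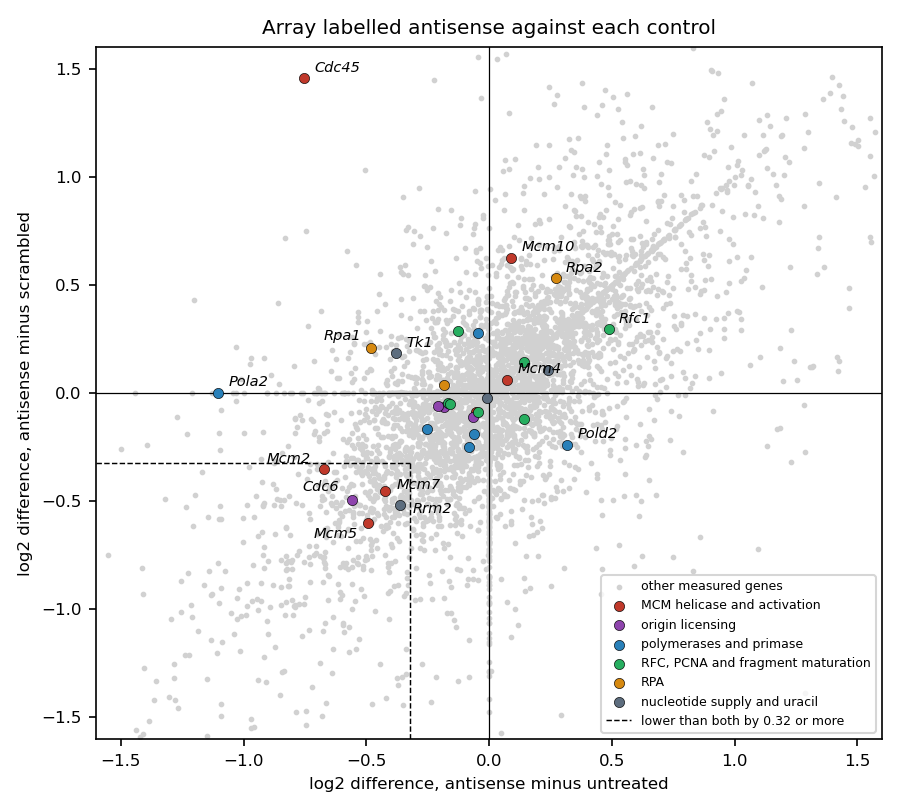
Log2 difference of the array labelled antisense from the untreated array (x axis) and from the scrambled array (y axis), with replication genes coloured by machine over all other measured genes in grey. Dashed lines bound the corner in which a gene is lower than both controls by 0.32 or more, which holds Mcm2, Mcm5, Mcm7, Cdc6 and Rrm2.

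The subunits of the helicase did not share a direction. Mcm5 read 32869 under the antisense label, 49890.3 with scrambled oligonucleotide and 46245 without treatment. Both controls lay close together, 0.11 apart on the log2 scale, and the array labelled antisense lay below them by -0.49 against untreated and -0.60 against scrambled, that is 1.41-fold and 1.52-fold lower, with a yardstick of 0.33. Mcm7 read 14178 under the antisense label, 19385 with scrambled oligonucleotide and 19055 without treatment. Its controls differed by 0.02, and the differences of -0.43 and -0.45, or 1.34-fold and 1.37-fold, exceeded its yardstick of 0.35. The 300 genes nearest to Mcm5 in level had a median difference of 0.03 against untreated and -0.04 against scrambled, and those nearest to Mcm7 of 0.02 and 0.01. Single genes of like brightness can differ as much: the B cell marker Ms4a1 read 31107, 44803 and 44236. Scaled to the spike-in controls instead, Mcm5 was 0.14 higher than untreated, and Mcm7 was 0.20 and 0.061 higher than untreated and scrambled, so these directions too are relative to the bulk of genes.

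Mcm2 was also lowest on the array labelled antisense, but its controls differed from each other as well. It read 2932 under the antisense label, 3740.0 with scrambled oligonucleotide and 4679.7 without treatment. Its difference of -0.67 from untreated was slightly above the yardstick of 0.66, and that of -0.35 from scrambled was within it and was 0.16 with spike-in scaling. The other measured subunits of the ring were flat. Mcm3 read 5874, 6234 and 6094 on the antisense-labelled, scrambled and untreated arrays, and Mcm4 read 7601, 7283 and 7221 in the same order. Their values spanned 1.06-fold and 1.05-fold, and Mcm4 was slightly higher, not lower, on the array labelled antisense. The dimmer second probe set of Mcm3 was below the floor on the 3 arrays, as was the probe set of Mcm6.

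The helicase activators did not follow Mcm5 and Mcm7, and in both the scrambled array was the lowest. Mcm10, which helps convert the loaded ring into a working helicase, read 3169 under the antisense label, 2052 with scrambled oligonucleotide and 2982 without treatment. It thus differed by 0.63 from scrambled, slightly above the yardstick of 0.60, and by 0.09 from untreated. Cdc45, a component of the active helicase, read 1636 on the array labelled antisense and 2756 on the untreated array, while on the scrambled array it was at the floor, at 595.9. Relative to scrambled it was at least 2.74-fold higher under the antisense label and at least 4.62-fold higher without treatment. At this level the yardstick is 1.20, so the difference of -0.75 between the array labelled antisense and untreated lay within it.

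The promoters of Mcm5, Mcm7 and Mcm3 are shown because Mcm5 and Mcm7 were lower than both controls past the yardstick while Mcm3 was flat, and the windows of all 3 hold spellings of the E2F site. That of Mcm2, which was also lower than both controls, holds none. Each window, from the RefSeq tables for GRCm38.p6, covers 250 bases before and 50 bases from an annotated transcript start on. The search was for TTTCGCGC, TTTGGCGC, TTTCCCGC and TTTGCCGC on both strands, and matches are in capitals. Mcm5 lies on the plus strand at chr8:75109259-75109558, and Mcm7 and Mcm3 on the minus strand at chr5:138171834-138172133 and chr1:20820263-20820562.
Mcm5: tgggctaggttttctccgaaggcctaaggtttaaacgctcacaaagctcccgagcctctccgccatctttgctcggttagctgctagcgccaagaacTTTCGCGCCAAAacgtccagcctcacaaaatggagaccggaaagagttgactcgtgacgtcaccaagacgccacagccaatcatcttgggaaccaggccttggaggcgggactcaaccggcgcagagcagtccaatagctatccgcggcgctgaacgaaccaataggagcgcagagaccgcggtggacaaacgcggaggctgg
Mcm7: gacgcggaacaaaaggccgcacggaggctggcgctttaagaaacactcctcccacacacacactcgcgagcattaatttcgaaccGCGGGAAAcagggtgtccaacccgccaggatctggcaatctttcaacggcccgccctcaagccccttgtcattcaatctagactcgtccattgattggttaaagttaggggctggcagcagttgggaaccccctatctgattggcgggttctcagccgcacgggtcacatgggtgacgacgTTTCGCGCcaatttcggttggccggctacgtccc
Mcm3: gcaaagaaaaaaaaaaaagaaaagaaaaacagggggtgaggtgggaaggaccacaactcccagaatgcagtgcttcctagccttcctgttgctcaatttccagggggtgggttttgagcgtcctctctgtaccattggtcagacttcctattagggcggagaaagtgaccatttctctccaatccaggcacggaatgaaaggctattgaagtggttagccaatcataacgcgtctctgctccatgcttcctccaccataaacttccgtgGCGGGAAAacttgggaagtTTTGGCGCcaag
In the Mcm5 window a match on the plus strand starts 153 bases before the start and overlaps one on the minus strand that starts 149 bases before it. In the Mcm7 window 1 match starts 165 bases before the start and the other 16 bases after it, and a second annotated Mcm7 window held none. The Mcm3 matches start 19 and 38 bases after the start.

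Across the list, 9 of 28 measured replication genes with a window in the table had such a match in any of their windows, or 32.1%, beside 5.26% of 3762 measured genes with a window and 2.26% of all 32851 windows. Matches were found both among genes that differed and among flat ones. A match was present for 3 of the 5 genes that were lower than both controls by at least 0.32, namely Mcm5, Mcm7 and Cdc6, and for 6 of the 14 with a window among the 15 genes whose arrays lay within 0.32, namely Cdt1, Lig1, Mcm3, Orc1, Pola1 and Pold1. A match is a description of letters in a window and no binding was measured. The CCAAT box, searched as CCAAT on both strands, was in 64.3% of the 28 genes and in 43.1% of measured genes. Lists of other replication genes and of mitosis genes, described below, had 45 and 29 genes with a window, measured or not. An E2F match was in 33.3% and 6.9% of these, and a CCAAT box in 46.7% and 86.2%.

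All 4 measured licensing genes were lower under the antisense label than in both controls, as were 31.6% of all measured genes. Cdc6 was the one that was so by at least 0.32. Cdc6, the ATPase that loads the MCM ring, read 2662 under the antisense label, 3746 with scrambled oligonucleotide and 3927 without treatment. Both controls were close to each other. The differences of -0.56 and -0.49 lay just within its yardstick of 0.57, so they did not exceed the scatter between the controls at this level, and with spike-in scaling they were 0.069 and 0.020. The Cdc6 window is shown for its single E2F-like match, in capitals, which lies on the minus strand and starts 138 bases before the transcript start. The gene is on the plus strand, and the window is chr11:98907901-98908200 of GRCm38.p6, from RefSeq.
Cdc6: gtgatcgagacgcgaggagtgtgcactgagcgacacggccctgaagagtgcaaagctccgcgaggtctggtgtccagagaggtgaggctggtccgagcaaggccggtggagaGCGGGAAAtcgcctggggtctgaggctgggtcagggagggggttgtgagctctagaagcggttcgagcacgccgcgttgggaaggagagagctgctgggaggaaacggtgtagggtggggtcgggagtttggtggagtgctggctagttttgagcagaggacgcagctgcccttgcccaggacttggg

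The rest of licensing stayed close to the controls. Cdt1, the partner of Cdc6 in loading, read 6222 under the antisense label, 6717 with scrambled oligonucleotide and 6515 without treatment, a span of 1.08-fold. A second Cdt1 probe set, which binds a gene family, was above the floor on the untreated array alone, at 640.1. Orc1 and Orc6, subunits of the origin recognition complex, had their highest value on the untreated array. Orc1 read 1273, 1332 and 1445 on the antisense-labelled, scrambled and untreated arrays, and Orc6 read 6267, 6541 and 7244. The Orc6 difference of -0.21 from untreated was within its yardstick of 0.42, and that of Orc1, -0.18, was within 1.22. The probe set of Gmnn read below 0 on the 3 arrays, which gives no information on geminin. The 2 probe sets annotated to both Nif3l1 and Orc2 were below the floor on the 3 arrays.

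Among polymerase and primase genes, the widest gaps set the untreated array apart from the others. Of the 6 measured, 3 were lower under the antisense label than in both controls and none was higher, beside 31.6% and 37.4% of all measured genes. Pola2, the regulatory subunit of polymerase alpha, read 1156 under the antisense label, 1154 with scrambled oligonucleotide and 2483 without treatment. Both oligonucleotide arrays were thus 2.15-fold below untreated and nearly equal to each other. The log2 difference of -1.10 between the array labelled antisense and untreated was within the yardstick of 1.11. Pola1, the catalytic subunit, read 2323, 2645 and 2424 on the antisense-labelled, scrambled and untreated arrays and showed no such gap.

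The primase genes differed from neither control by more than their yardsticks. Prim1, the catalytic primase subunit, read 5055 under the antisense label, 6014 with scrambled oligonucleotide and 5352 without treatment. Prim2, the large primase subunit, read 1448.5, 1193 and 1494 in that order, near a level where the yardstick is 1.20. The subunits of polymerase delta had different orders. Pold1, the catalytic subunit, read 5341 under the antisense label, 5995 with scrambled oligonucleotide and 6374 without treatment, with differences of -0.26 and -0.17 within the yardstick of 0.44. Pold2, the accessory subunit, read 12186, 14379 and 9784, so that it was lowest on the untreated array. Its 1.47-fold gap between scrambled and untreated was wider than that of the array labelled antisense from either. Pold2 was read by a probe set marked _r, for which some probe selection rules had been relaxed.

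The clamp and its loader showed no common shift. Pcna, the sliding clamp, read 31100.2 under the antisense label, 33779.5 with scrambled oligonucleotide and 28160.3 without treatment, so that the array labelled antisense lay between its controls. At this brightness the yardstick is 0.33, and the differences were 0.14 and -0.12. Rfc4, a small subunit of the loader, read 6204, 6402 and 6973 on the antisense-labelled, scrambled and untreated arrays, a span of 1.12-fold. Rfc1, the large subunit of the loader, was highest on the array labelled antisense. It read 2372 under the antisense label, 1931 with scrambled oligonucleotide and 1694 without treatment, and its differences of 0.49 and 0.30 were within its yardstick of 0.87. Rfc2, also a small subunit, was above the floor on the array labelled antisense alone, at 658, so it passed the filter through that array and counts among the 6 higher genes on that value only.

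Rfc5, another small loader subunit, had 3 probe sets that disagreed. The brightest read 7367 under the antisense label, 6036 with scrambled oligonucleotide and 8038 without treatment, so the scrambled array was lowest. The next read 1524, 2420.0 and 1191, and the dimmest 319, 1527 and 596, so in both of these the scrambled array was highest. Between scrambled and untreated the brightest gave a difference of -0.41 and the mean of all 3 gave 0.66, so no direction is given for Rfc5. The genes that mature Okazaki fragments were flat. Fen1, the flap nuclease, read 4895, 5196 and 5059 on the antisense-labelled, scrambled and untreated arrays, and Lig1, the ligase that seals fragments, read 3139, 3251 and 3509. Their spans were 1.06-fold and 1.12-fold.

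RPA, which coats single-stranded DNA at the fork as a complex of 3 subunits, did not show a single pattern. Rpa1, the large subunit, read 7122 under the antisense label, 6167 with scrambled oligonucleotide and 9938 without treatment. Both oligonucleotide arrays lay below the untreated one. The difference of -0.48 between the array labelled antisense and untreated exceeded the yardstick of 0.40, but was 0.15 with spike-in scaling, and the scrambled array differed from untreated by -0.69. Rpa2, the middle subunit, read 2751, 1902 and 2281, so that the array labelled antisense was highest, by 0.27 over untreated and 0.53 over scrambled, both within its yardstick of 0.64. Rpa3, the small subunit, read 1793, 1749.8 and 2039 and was flat within 1.17-fold. In all 3 subunits the scrambled array was the lowest, but for Rpa3 the array labelled antisense was higher by only 0.036, with a yardstick of 0.85. Over the processing alternatives other than spike-ins that Rpa3 difference ranged from -0.013 to 0.037.

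The genes of nucleotide supply also differed from each other. Rrm1, the large subunit of ribonucleotide reductase, read 14755 under the antisense label, 15013 with scrambled oligonucleotide and 14838 without treatment, a span of 1.02-fold, the narrowest of the 29 genes above the floor on the 3 arrays. Rrm2, the small subunit of the same enzyme, whose level is known to limit it and to peak in S phase, read 5319 under the antisense label, 7616 with scrambled oligonucleotide and 6837 without treatment. It was lowest under that label, 1.43-fold below scrambled, a difference of -0.52 that exceeded the yardstick of 0.42, and 1.29-fold below untreated, a difference of -0.36 within it that was 0.27 with spike-in scaling.

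Tk1, the thymidine kinase of the salvage pathway, had the order of Rpa1. It read 5269 under the antisense label, 4635 with scrambled oligonucleotide and 6849 without treatment, so the untreated array was highest and the scrambled lowest. Ung, which removes uracil from DNA, read 2579, 2397 and 2184 on the antisense-labelled, scrambled and untreated arrays and differed by 0.24 from untreated, within its yardstick of 0.66. The probe set of Dut, which hydrolyses dUTP, was below the floor on the 3 arrays. The probe sets annotated to both Tyms and its pseudogene Tyms-ps disagreed. One read 2536, 2263 and 3016 and was highest on the untreated array, and the other read 3010.0, 5316 and 3611 and was highest on the scrambled array.

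**Figure D3:**
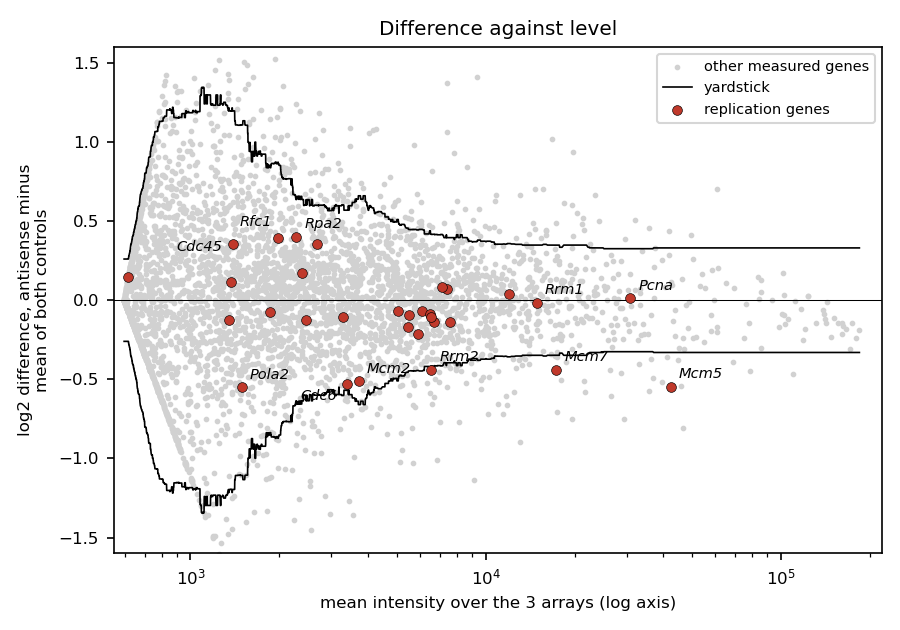
Log2 difference of the array labelled antisense from the mean of both controls (y axis) against mean intensity over the 3 arrays (x axis, log scale), with replication genes in red and other measured genes in grey. Black lines are the yardstick above and below 0. Mcm5, Mcm7 and, by a small margin, Rrm2 lie below the lower line. A few other genes beyond the axis limits are not drawn.

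A second rule compared both oligonucleotide arrays with the untreated array. Lower than untreated by at least 0.32 on both were 5 of 31 replication genes, or 16.1%, beside 6.31% of measured genes: Mcm2, Cdc45, Pola2, Rpa1 and Tk1. None of the 31 was higher on both by this rule, beside 5.98%. Both differences share the untreated array. The oligonucleotide arrays were not alike in all 5 genes. Between them Cdc45 differed by at least 1.46, past its yardstick of 1.20, and Mcm2, also among the genes lower than both controls, by -0.35. With spike-in scaling the array labelled antisense differed from untreated by -0.044 for Mcm2, -0.12 for Cdc45 and -0.47 for Pola2. The scrambled and untreated arrays were at least 0.32 apart for 9 of 31 genes, or 29.0%, beside 31.0% of measured genes, which is no more than the background. Of the 29 genes above the floor on the 3 arrays, 13 had their highest value on the untreated array, or 44.8%, beside 29.2% of all such genes, and 5 had it on the array labelled antisense. The Tk1 value on the array labelled antisense was 1.30-fold below untreated, a difference of -0.38 within its yardstick of 0.45 that was 0.25 with spike-in scaling, while that of Rpa1 was 1.40-fold below and past its yardstick.

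**Figure D4:**
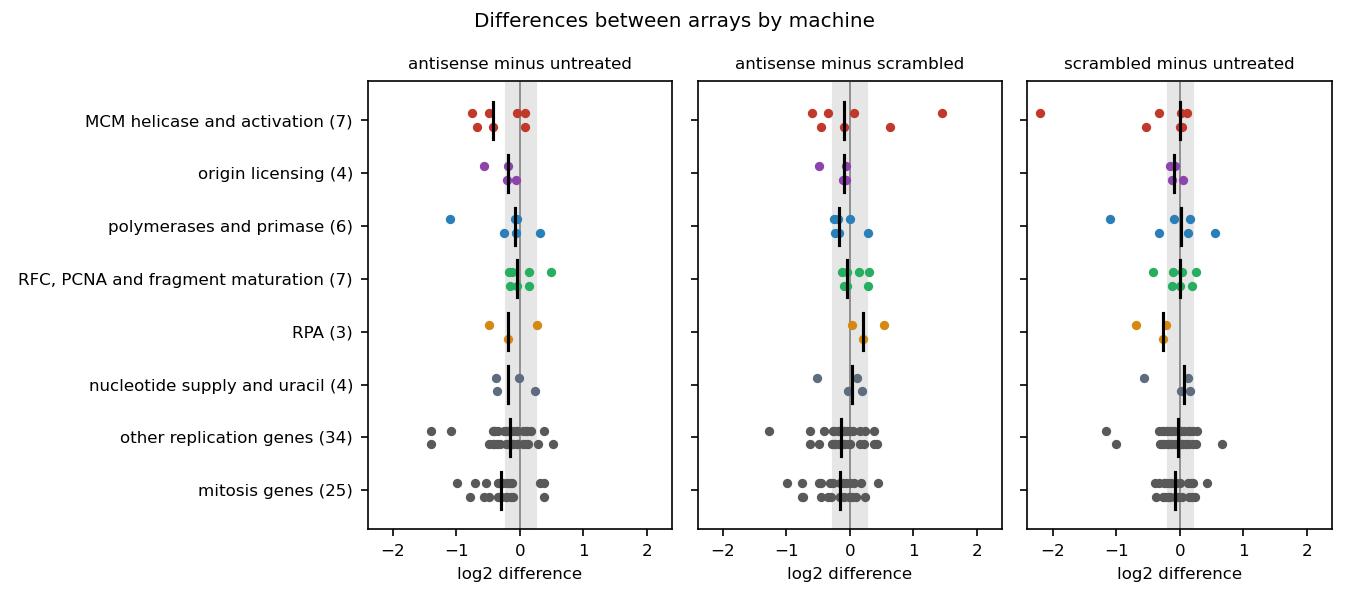
Log2 differences between arrays for each measured gene (points) by machine, for 34 other replication genes and for 25 mitosis genes, with the median of each set as a black bar. The grey band lies between the quartiles of all measured genes. The helicase set has a median of -0.43 against untreated and -0.09 against scrambled, and RPA has medians of -0.18 and 0.21.

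By machine, the medians against untreated were -0.43 for the 7 measured helicase genes, -0.20 for the 4 licensing genes, -0.07 for the 6 polymerase and primase genes, -0.05 for the 7 genes of the clamp, its loader and fragment maturation, -0.18 for the 3 RPA genes and -0.19 for the 4 nucleotide genes. Against scrambled they were -0.09, -0.09, -0.18, -0.05, 0.21 and 0.04 in that order. The helicase was thus the lowest set against untreated but not against scrambled. The gene that changed side was Cdc45, at -0.75 against untreated and at least 1.46 against scrambled, where its scrambled value was at the floor. Mcm4 and Mcm10 were above both controls. The licensing set was the one whose measured members all lay on the same side of both controls, though no difference of these genes exceeded its yardstick. The sets hold 3 to 7 genes each, and no difference between them was tested.

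Other genes of replication, listed apart from the 38, were also more often lower than higher. Of 55 listed, 41 had a probe set of their own and 34 were measured. On the array labelled antisense 21 of the 34 were lower than on both controls, or 61.8%, beside 31.6% of measured genes. Higher than on both were 7, or 20.6%, beside 37.4%. Their median difference was -0.15 from untreated and -0.14 from scrambled. By the rule of 0.32, 4 were lower, or 11.8% beside the 10.5% of measured genes. Cdc7 was higher, which is 2.94% beside 13.6%, and passed the filter through the array labelled antisense alone. The replication list and this one were both put together with earlier results of these data known.

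Chaf1a, the large subunit of the chromatin assembly factor that PCNA recruits to new DNA, was the lowest of these. It read 881 under the antisense label, 2128 with scrambled oligonucleotide and 2337 without treatment, differences of -1.41 against untreated and -1.27 against scrambled that exceeded its yardstick of 0.91. Dnmt1, which copies DNA methylation at the fork, read 5465, 8406 and 7275, and its difference of -0.62 from scrambled exceeded the yardstick of 0.41 while that of -0.41 from untreated was just within it. Rrm2b, the alternative small subunit of ribonucleotide reductase, read 649, 1000 and 869, within its yardstick of 1.16 and from a family probe set. At the other end, Dtymk, a kinase that makes dTDP, read 8036, 6159 and 7323, Top2a, a topoisomerase, read 3379, 2519 and 3172, and Ccne1, the cyclin E1 gene, read 3950.2, 4393 and 2754. Each of these 3 lay within the yardstick against both controls.

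Genes of mitosis are set beside the replication genes because cycling cells express both. Of 25 measured mitosis genes, 18 were lower than both controls under the antisense label, or 72%, beside 31.6% of measured genes. Higher than both were 3, or 12%, beside 37.4%. Their median difference was -0.29 from untreated and -0.16 from scrambled. This list was also put together with earlier results of these data known. Past the yardstick in both comparisons were 3 lower genes, namely Plk1, Cdc20 and Cdc25c, and 1 higher gene, Cks1b, beside Mcm5 and Mcm7 among the 31 replication genes. These are 12% and 4% of the 25, where 2.54% of measured genes were lower and 2.52% higher by this rule. Cdc25c, a phosphatase that activates Cdk1, read 1035 under the antisense label, 2050.4 with scrambled oligonucleotide and 2049 without treatment. Plk1, a mitotic kinase, read 5698, 9589 and 9814, and Cdc20, which switches on the ligase that starts anaphase, read 8216, 13711 and 13382, so both controls were close together in all 3 genes. The probe sets of Cdc25c and Plk1 carry the marks _s and _g, which plain probe sets such as that of Cdc20 do not. Cks1b, which binds cyclin-dependent kinases, read 19304 under the antisense label, 14159 with scrambled oligonucleotide and 14852 without treatment. The microtubule motor gene Kif11 read 2138, 1802 and 1648, and the checkpoint kinase gene Bub1 read 1954, 1738 and 1573, both within their yardsticks. Of the mitosis genes above the floor on the 3 arrays, 8 of 24 had values within 0.32, or 33.3%. This compares with 15 of 29 replication genes and 41.8% of all such genes. The difference between these lists was not tested.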

How the data were processed

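Expression was measured on 3 arrays of the LNC cell line, 1 per group. The authors deposited 1 intensity per probe set, made by software not given in the sources used here. Values at or below 0 made up 24.8% to 27.9% of an array, so they hold a subtraction, of a kind not given. Each array was scaled to the same mean after trimming 2% from each end. The deposited arrays already shared a trimmed mean of 1500, and the factors were 0.9993 to 1.0004. The alternative without this scaling was thus nearly the same setting. Values were set to a floor of 595.9, which is 2 robust SDs of the values below 0, and put on a log2 scale.

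Of 12588 probe sets that are not controls, 10276 carried 1 gene symbol, 363 several and 1949 were not listed in the platform annotation used. The last 2 kinds named no gene, and 22 control probe sets with a symbol were kept under that gene. A gene was read from its brightest probe set and was measured where at least 1 array was above the floor. All 38 listed genes are named, and of the other replication and mitosis lists the 3 lowest and 3 highest by mean difference from both controls, among genes above the floor on the 3 arrays. The members and lists were chosen with earlier results of these data known. With 1 array per group no test was possible, and the number of arrays limits the precision.

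The sum of all intensities above 0 for B cell markers was 208951 under the antisense label, 270985 with scrambled oligonucleotide and 239010 without treatment, with 6 of 9 above the floor on the 3 arrays. For T cell markers it was 1487, 2684 and 1349, with 1 of 6 above the floor on the 3 arrays. Myeloid markers gave 733, 1012 and 1486, with 0 of 7, plasma cell markers 8935, 8106 and 8687, with 2 of 4, and fibroblast and endothelium markers 2327, 2699 and 2335, with 2 of 5.

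Python 3.11.15, numpy 2.4.6, pandas 2.3.3 and matplotlib 3.10.9 were used, and the calculation was tested on simulated data. Scaling, floor, filter and choice of probe set were varied.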

Additional observations from a re-analysis of the deposited data

How the results depend on the processing

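Among differences of at least 0.32, directions changed with scaling to the 6 spike-in probe sets and, for Rfc5, with averaging of probe sets. Some differences near 0 also changed sign over the alternatives other than spike-ins. Against scrambled, Rpa3 ranged from -0.013 to 0.037 and Pola2 from -0.046 to 0.0035. Between scrambled and untreated, Cdt1 ranged from -0.030 to 0.071. Scaling to the median of bright probe sets gave 18 of 31 genes lower than both controls, beside 34.6% of measured genes. Spike-in scaling gave the replication genes medians of 0.50 against untreated, 0.46 against scrambled and 0.029 for scrambled against untreated, beside 0.59, 0.48 and 0.08 over all measured genes, with 0 of 31 genes lower than both controls (5.03% of measured genes) and 26 higher (82.3%). Against untreated, it turned Mcm5 to 0.14, Mcm7 to 0.20, Cdc6 to 0.069, Rrm2 to 0.27, Tk1 to 0.25 and Rpa1 to 0.15, and against scrambled Mcm2 to 0.16, Mcm7 to 0.061 and Cdc6 to 0.020. Without the filter the medians were -0.066 against untreated and 0 for scrambled against untreated. Averaging all probe sets turned Rfc5 between scrambled and untreated to 0.66, and on the array labelled antisense to -0.58 against scrambled and 0.076 against untreated. The median of -0.13 against untreated is the Rfc5 value itself, and with averaging the median was -0.085. Over the alternatives other than spike-ins, Mcm5 ranged from -0.51 to -0.49 against untreated and Mcm7 from -0.45 to -0.42. No paired analysis was possible because each group has 1 array. For the same reason no array could be left out. Dim genes have yardsticks of up to 1.22, so only large differences could be seen in them.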
